A study of Mus musculus with 23 samples.

Results

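The 9 genes described here belong to 3 families of immediate early genes: the zinc finger transcription factors Egr1, Egr2 and Egr3, the orphan nuclear receptors Nr4a1, Nr4a2 and Nr4a3, and the immediate early response genes Ier2, Ier3 and Ier5. They were taken by symbol from the 52636 genes of the deposited tables, and all 9 were among the 15782 genes that passed the filter on low counts. Polyadenylated RNA was sequenced from 23 libraries of mouse bone marrow-derived macrophages; such cells are differentiated in culture from bone marrow. The genotype labels are WT and Stk40 KO. Cells were untreated (T0) or treated with lipopolysaccharide (LPS), a bacterial cell wall component that activates Toll-like receptor 4, labelled T6, T16 or T32 by time, in a unit that the labels leave out. Nor do they give the sex and age of the mice, how the Stk40 allele was made, or whether replicates are separate mice or cultures, so a p-value here measures the spread among these libraries, part of which may be technical. WT T16 had 2 libraries, and the other 7 groups 3 each.

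Depth was between 19455080 and 44097733 counts. Stk40 RNA, the targeted gene, was not lower in the libraries labelled KO. It ran from 39.7 to 52.5 CPM (counts scaled to library size) in WT T0 and from 51.7 to 61.3 CPM in KO T0. After LPS every KO library lay above every WT library of its time. The values were 354 to 388 CPM in KO against 281 to 335 in WT at T6, and 155 to 166 against 96 and 143 at T16. At T32 they were 102 to 107 CPM in KO against 69.1 to 99.0 in WT. A whole-gene count does not show which exons are present, so genotype rests on the labels, and WT and KO below mean the libraries so labelled. Macrophage markers such as Csf1r (1070 to 3010 CPM) and Adgre1 (723 to 4710 CPM) were high in every library, while 5 erythroid markers and the T cell gene Cd3e stayed under 1 CPM. All 8 neutrophil and granule markers were detected in every library, led by Ngp (10.3 to 251 CPM), with Ly6g at 0.0272 to 2.49 CPM. Their sum was lowest at T32 and at each time higher in every KO library than in every WT library, at 420 to 493 CPM against 220 to 398 at T0, 392 to 512 against 207 to 346 at T6, 209 to 258 against 91.1 and 191 at T16, and 57.3 to 89.5 against 32.7 to 47.7 at T32. The 6 stromal and endothelial markers, also all detected, summed to 32.9 to 387 CPM, and at T16 to 353 and 369 CPM in WT against 83.3 to 222 in KO. Both sums thus move with time or genotype, as results below do, and their part in those was not tested. Within groups there were outlying libraries. The mitochondrial share was 0.355% in KO T0 replicate 1, where the remaining untreated libraries had 1.38% to 1.82%. At T6 it was 0.681% in replicate 2 of KO and 1.1% in replicate 2 of WT, beside 0.351% to 0.474%, and both had the highest T6 levels of the acute-phase gene Saa3. WT T16 replicate 2 had 47800 CPM of Saa3, beside 21800 to 30200 CPM in its peers. RNA from the Y chromosome was seen in 4 WT libraries, which are replicate 2 of T0, replicate 1 of T6, replicate 2 of T16 and replicate 3 of T32, and in none of the KO libraries (the Y-positive libraries below). Xist, the RNA of the inactive X chromosome, was under 0.5 CPM in these 4 and at 378 to 630 CPM in all others, so each WT group holds RNA of mice of both sexes and the KO groups do not. In bulk RNA, fewer cells of a type and less RNA per cell cannot be told apart.

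Immediate early genes are transcribed within minutes of a stimulus without new protein synthesis, because the factors that drive them, such as serum response factor (SRF) with its ternary complex partners and CREB, are already present and are switched on by kinases. In macrophages LPS reaches such genes through MAP kinases and NF-kB. EGR proteins bind GC-rich DNA and are restrained by the corepressors Nab1 and Nab2; Egr2 is also known as a marker of alternatively activated macrophages. NR4A receptors bind DNA without a known physiological ligand and restrain inflammatory transcription in macrophages, and Nr4a1 is required for a subset of monocytes. Ier3 is a stress and survival protein induced by NF-kB, while Ier2 and Ier5 are related nuclear regulators. The transcripts of this class are short-lived, and the earliest sample after LPS here is the one labelled T6.

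Promoter sequences are shown because the 3 NR4A genes share a feature there. Their RNA followed different courses, which are described below. RefSeq windows of the build GRCm38.p6 were found for 6 of the 9 genes (Egr2, Nr4a1, Nr4a2, Nr4a3, Ier3 and Ier5). In the 250 bases before the start, each NR4A window held 4 copies of TGACG, the core of the CREB binding motif, counted on both strands. Of 32851 windows of the same length, 17.8% held at least 1 copy and 0.137% at least 4. The sequences follow 5′ to 3′ on the gene's strand, with TGACG or its reverse complement CGTCA in capitals. For Nr4a1 this is chr15:101266596-101266845 on the plus strand, inside the span of the gene but in none of its annotated exons, and for Nr4a2 chr2:57124004-57124253 on the minus strand. For Nr4a3 only the part before the first annotated exon is printed, chr4:48045055-48045152 on the plus strand, which holds 3 of the 4 copies.
Nr4a1: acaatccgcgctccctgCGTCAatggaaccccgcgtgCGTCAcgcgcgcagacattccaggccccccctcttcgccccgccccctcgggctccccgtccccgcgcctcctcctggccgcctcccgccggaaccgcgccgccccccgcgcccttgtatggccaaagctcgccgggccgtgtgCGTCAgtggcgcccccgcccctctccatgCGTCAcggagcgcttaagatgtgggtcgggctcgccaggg
Nr4a2: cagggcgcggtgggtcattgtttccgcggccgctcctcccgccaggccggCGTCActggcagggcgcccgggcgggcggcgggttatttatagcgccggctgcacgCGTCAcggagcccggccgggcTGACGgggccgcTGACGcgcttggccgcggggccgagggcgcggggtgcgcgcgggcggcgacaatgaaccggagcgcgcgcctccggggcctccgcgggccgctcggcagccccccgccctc
Nr4a3: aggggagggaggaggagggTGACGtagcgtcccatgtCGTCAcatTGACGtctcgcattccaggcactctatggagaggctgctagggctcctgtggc

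Of 5 Egr2 windows, which overlap each other in part, 4 held 1 CArG box, the element that SRF binds, against 1.5% of all windows, and 3 held 2 copies of TGACG. The box that 3 of these windows share lies within chr10:67537787-67537816 on the plus strand, shown with the match in capitals. The Ier3 window held 1 match to the NF-kB motif, present in 3.9% of windows, within chr17:35821611-35821640 on the plus strand. The Ier5 window held none of the motifs searched, and GCGTGGGCG, the sequence that EGR proteins bind, was in none of the 6 genes' windows (0.5% of all windows). A match is a description of these letters and not a measured binding site.
Egr2: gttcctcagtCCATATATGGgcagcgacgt
Ier3: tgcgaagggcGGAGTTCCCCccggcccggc

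The IER genes were the most abundant per unit of length. On the authors' length-adjusted scale (nRPKM, an RPKM adjusted by size factors), the mean in WT T0 was 88.9 ± 18.2 (SD, n = 3) for Ier3, 42.7 ± 2.27 for Ier5 and 25.3 ± 3.42 for Ier2, and these ranges did not overlap. Nr4a1 (4.86 ± 1.40) lay above Egr1 (3.12 ± 0.236), and Egr1 and Egr2 (2.96 ± 0.472) could not be separated. The other 3 lay below these, with Egr3 at 0.440 ± 0.268, Nr4a2 at 0.201 ± 0.0482 and Nr4a3 at 0.0780 ± 0.0149 nRPKM. Egr3 and Nr4a2 overlapped, whereas Nr4a3 lay below both. The order differed at WT T6, where Ier2 (49.2 ± 13.1) overlapped Ier5 (37.9 ± 6.21), and Nr4a2 (0.508 ± 0.197) and Nr4a3 (0.450 ± 0.156) both lay above Egr3 (0.0971 ± 0.0174). Counts show how much each value can carry: Ier3 had 2302 to 8127 reads per library, but Egr3 had 4 to 97 and Nr4a3 4 to 118.

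**Figure D1:**
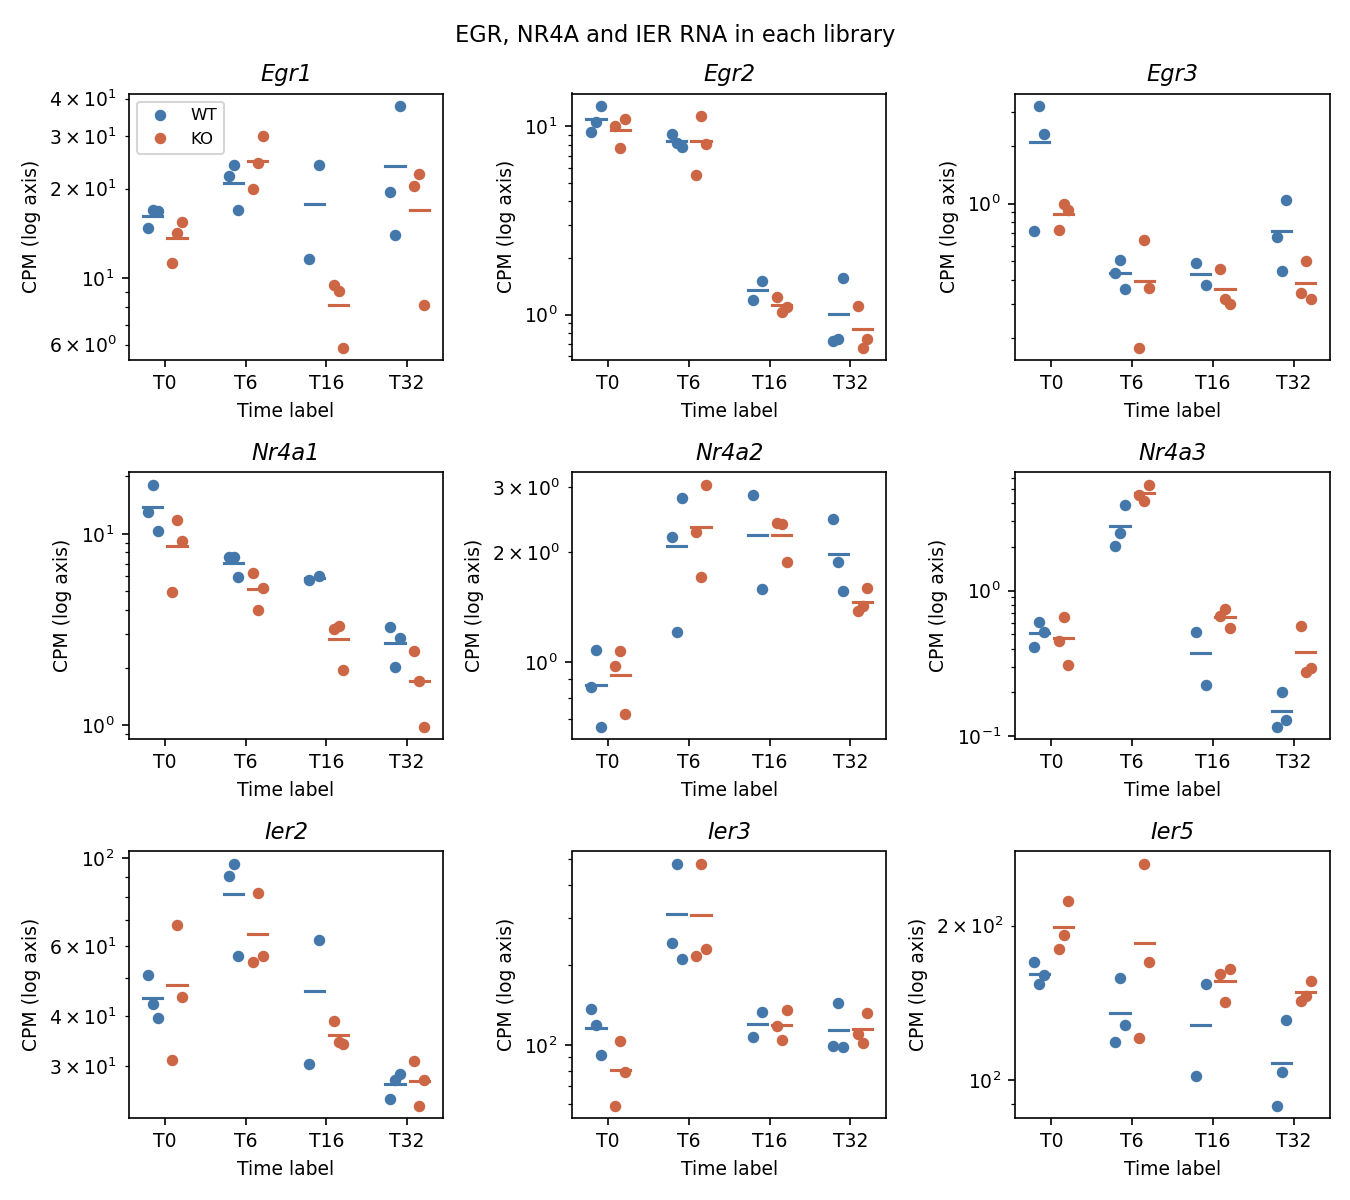
Level of each of the 9 genes in all 23 libraries, in CPM on a log axis, by time label, with points for libraries and short bars for group means (WT blue, KO orange). Egr2 drops between T6 and T16 in both genotypes, Nr4a3 peaks at T6, and Nr4a1 is lowest at T32, where its libraries run from 0.981 to 3.25 CPM.

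Nr4a3 had the largest rise of the 9 after LPS, and it was transient. The gene lies at chr4:48045153-48086447 of GRCm38. In WT it was at 0.411, 0.609 and 0.524 CPM at T0, 2.03, 2.48 and 3.88 at T6, 0.517 and 0.225 at T16, and 0.116, 0.201 and 0.130 at T32 (replicates in order). In KO the values were 0.452, 0.658 and 0.310 at T0, 4.53, 4.12 and 5.37 at T6, 0.671, 0.747 and 0.551 at T16, and 0.573, 0.278 and 0.292 at T32. Every T6 library lay above every library of the other times in both genotypes. From T0 to T6 Nr4a3 rose 5.38-fold in WT (log2 2.43 ± 0.35 SE, edgeR adjusted p = 5.4e-06) and 9.83-fold in KO (log2 3.30 ± 0.34, adjusted p = 1e-07). From T6 to T16 it fell by 2.85 (WT, adjusted p = 1.7e-05) and 2.83 (KO, adjusted p = 1.1e-06) on the log2 scale. At T32 it was below T0 in WT (log2 -1.74 ± 0.43, adjusted p = 0.0022), with no overlap, while the KO libraries of T32 overlapped those of T0.

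Nr4a1, chr15:101254269-101274795, was highest before LPS and fell. Its WT values were 13.0, 18.1 and 10.4 CPM at T0, 7.54, 7.55 and 5.98 at T6, 5.77 and 6.01 at T16, and 3.25, 2.01 and 2.85 at T32. In KO it was at 4.97, 11.8 and 9.22 CPM at T0, 6.21, 4 and 5.23 at T6, 3.18, 3.31 and 1.95 at T16, and 2.44, 1.70 and 0.981 at T32. All T32 libraries of a genotype lay below all of its T0 libraries. By T32 Nr4a1 changed by -2.36 ± 0.32 on the log2 scale in WT (adjusted p = 1.2e-05) and by -2.36 ± 0.33 in KO (adjusted p = 2e-05). The earlier steps were smaller: in WT it fell by 0.98 at T6 and by 1.23 at T16 (adjusted p = 0.012 for both), and in KO by 1.63 at T16 (adjusted p = 0.00051), while at T6 the KO difference was -0.74 (adjusted p = 0.054). The WT call at T6 was lost without WT T0 replicate 2 (log2 -0.72, adjusted p = 0.08) or WT T6 replicate 3 (-0.87, adjusted p = 0.051), and at T16 without WT T0 replicate 2 (-0.99, adjusted p = 0.053), T16 replicate 1 (-1.20, adjusted p = 0.066) or T16 replicate 2 (-1.26, adjusted p = 0.06). Without the Y-positive libraries both WT calls were lost (-0.79, adjusted p = 0.13, at T6 and -1.02, adjusted p = 0.17, at T16). The KO difference at T6 passed in 5 of 23 fits that left out 1 library, among them that without KO T0 replicate 1 (-1.02, adjusted p = 0.0084), the library with the low mitochondrial share, and was -0.45 without KO T0 replicate 2 (adjusted p = 0.28).

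Nr4a2, chr2:57106830-57124003 on the minus strand, moved to a higher level at T6, which it kept to T32 in WT and to T16 in KO. It ran from 0.667 to 1.08 CPM in the 6 T0 libraries and from 1.21 to 3.05 CPM in the 17 LPS libraries, without overlap. Against T0 it rose 2.43-fold at T6, 2.59-fold at T16 and 2.29-fold at T32 in WT (log2 1.28 ± 0.32, 1.37 ± 0.35 and 1.20 ± 0.31, adjusted p = 0.0019, 0.0037 and 0.0044). In KO it rose 2.53-fold at T6 (adjusted p = 0.0012) and 2.38-fold at T16 (adjusted p = 0.0031). At T32 its 3 KO libraries (1.38, 1.42 and 1.59 CPM) lay above the KO T0 libraries without passing the test. These 3 lay below all KO libraries of T6 (1.71 to 3.05 CPM) and T16 (1.88 to 2.4 CPM). The WT rise at T16 rested on 2 libraries, 2.86 and 1.58 CPM, and was lost without the first (log2 0.88, adjusted p = 0.12). Each of the 3 NR4A genes had 4 TGACG copies in its 250-base window, and a link of these copies to the courses was not tested. Nr4a3 was highest at T6 and Nr4a1 before LPS. Nr4a2 was highest from T6 on in WT, and at T6 and T16 in KO.

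Egr2, chr10:67535475-67542188, had the deepest fall of the 9 genes. WT libraries were at 9.32, 10.5 and 12.9 CPM at T0, 9.17, 8.12 and 7.77 at T6, 1.2 and 1.5 at T16, and 0.720, 0.738 and 1.56 at T32. KO libraries were at 10.1, 7.72 and 10.9 CPM at T0, 5.50, 11.4 and 8.10 at T6, 1.24, 1.03 and 1.1 at T16, and 1.11, 0.667 and 0.742 at T32. No library of T16 or T32 reached 2 CPM, and none of T0 or T6 was under 5 CPM. Between T6 and T16 it fell by 2.64 on the log2 scale in WT (SE 0.32, adjusted p = 3.8e-06) and by 2.89 in KO (SE 0.29, adjusted p = 1.5e-07). At T32 it was 11-fold lower than at T0 in WT (adjusted p = 3.2e-08) and 11.5-fold lower in KO (adjusted p = 3.5e-08). These calls passed in each of 30 alternative fits.

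Egr3, chr14:70077203-70082614, was the scarcest EGR gene and the most uneven. In WT T0 it was at 0.719, 3.23 and 2.31 CPM, so 1 of the 3 libraries was at the level of KO T0 (0.728, 1 and 0.929 CPM). After LPS it ran from 0.178 to 1.04 CPM in the 17 libraries. It fell in WT by 2.27 at T6 (SE 0.48, adjusted p = 4e-04), by 2.25 at T16 (adjusted p = 0.0025) and by 1.55 at T32 (adjusted p = 0.0066) on the log2 scale. In KO the fall was 1.19 at T6 (adjusted p = 0.047) and 1.30 at T16 (adjusted p = 0.034), and at T32 the difference was -1.17 (adjusted p = 0.055). Of the 23 fits that left out 1 library, 17 ended the KO call at T6 and 4 that at T16, and the WT call at T32 was lost without WT T0 replicate 2 (log2 -1.1, adjusted p = 0.057). The KO call at T6 was also lost with DESeq2 (adjusted p = 0.076), and the WT call at T16 without the Y-positive libraries (log2 -1.63, adjusted p = 0.1).

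Egr1, the best known member of its family, lies at chr18:34859823-34864984. In WT it was at 14.7, 17 and 16.8 CPM at T0, 22.0, 23.9 and 16.9 at T6, 11.6 and 23.9 at T16, and 19.5, 14 and 37.9 at T32. Libraries of KO had 11.3, 14.2 and 15.4 CPM at T0, 19.9, 24.3 and 30.0 at T6, 9.53, 9.10 and 5.86 at T16, and 20.4, 22.3 and 8.14 at T32. The highest WT values of T16 and T32 were in the Y-positive libraries. The average genotype difference of Egr1 without the Y-positive libraries is given below, and the cause of their higher values was not tested. No WT change passed the test. In KO Egr1 rose 1.82-fold at T6 (log2 0.86 ± 0.35, adjusted p = 0.044) and fell by 1.60 from T6 to T16 (SE 0.36, adjusted p = 0.0012). Leaving out 1 library ended the rise in 7 of 23 cases, and the fall in none.

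Ier3, chr17:35821684-35822923, rose at T6 and fell again by T16. WT libraries were at 137, 119 and 91.3 CPM at T0, 241, 481 and 211 at T6, 107 and 133 at T16, and 98.7, 144 and 97.9 at T32. The KO values were 59.0, 103 and 79.2 CPM at T0, 216, 479 and 229 at T6, 118, 104 and 135 at T16, and 110, 102 and 132 at T32. The KO libraries of T16 lay above all KO libraries of T0, without passing the test. In both genotypes the highest value was in T6 replicate 2, the libraries with the highest Saa3 and mitochondrial share of that time. From T0 to T6 Ier3 rose 2.68-fold in WT (log2 1.42 ± 0.31, adjusted p = 0.00061) and 3.83-fold in KO (log2 1.94 ± 0.31, adjusted p = 2.7e-05). Without replicate 2 the log2 rise was 0.96 in WT (adjusted p = 0.0076) and 1.47 in KO (adjusted p = 0.00018). By T16 Ier3 fell from T6 by 1.37 on the log2 scale in both WT (adjusted p = 0.0043) and KO (adjusted p = 0.0013), and by 0.91 in each without T6 replicate 2 of that genotype (adjusted p = 0.03 and 0.014).

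Ier2, chr8:84661331-84662852 on the minus strand, had a smaller peak. At T0 the 6 libraries ran from 31.0 to 68.0 CPM. T6 values were 90.3, 97.0 and 56.8 CPM in WT and 54.9, 81.8 and 56.9 in KO, and at T32 all 6 libraries lay between 23.8 and 30.8 CPM. Ier2 rose 1.83-fold at T6 in WT (log2 0.87 ± 0.26, adjusted p = 0.008), and its KO libraries of T6 overlapped those of T0. At T32 it was below T0 by 0.72 in WT (adjusted p = 0.033) and by 0.80 in KO (adjusted p = 0.022) on the log2 scale. Leaving out 1 library ended the first of these falls in 5 of 23 cases and the second in 3, the latter being -0.47 without KO T0 replicate 2 (adjusted p = 0.2). Without the Y-positive libraries the WT rise at T6 (0.77, adjusted p = 0.053) and the WT fall at T32 (-0.78, adjusted p = 0.067) did not pass.

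Ier5, chr1:155096361-155099636 on the minus strand, varied least. In WT it was at 170, 154 and 160 CPM at T0, 119, 158 and 128 at T6, 102 and 154 at T16, and 89.3, 104 and 131 at T32. In KO it was at 180, 192 and 223 CPM at T0, 121, 264 and 170 at T6, 161, 142 and 165 at T16, and 143, 146 and 156 at T32. The T32 libraries of each genotype lay below those of T0. Only the WT fall at T32 passed the test (log2 -0.58 ± 0.21, adjusted p = 0.033), and leaving out 1 library ended it in 5 of 23 cases.

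**Figure D2:**
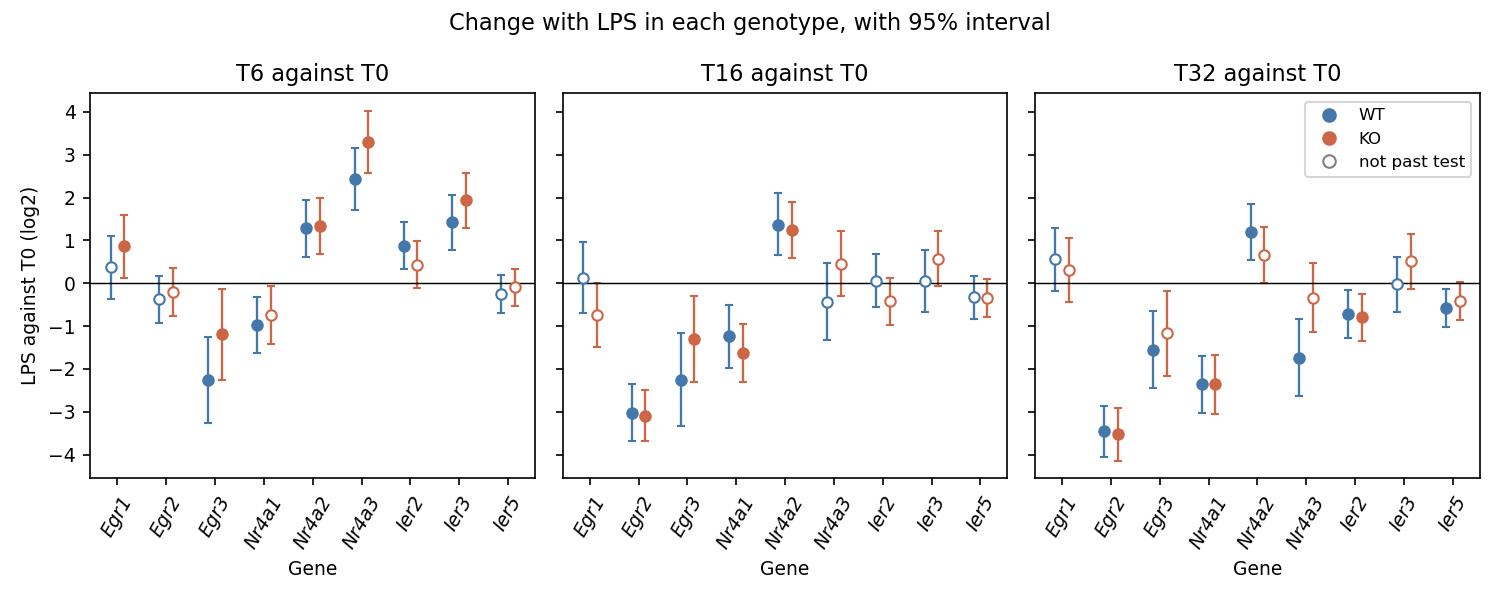
Log2 difference between each LPS time and T0 for the 9 genes (x axis), with the 95% interval, WT in blue and KO in orange, filled where the adjusted p was under 0.05. Nr4a3 is the highest point at T6 (2.43 in WT and 3.30 in KO) and Egr2 the lowest at T16 and T32 (-3.46 in WT at T32).

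Counted together, 4 of the 9 genes rose and 2 fell at T6 in WT, where 27.3% of all genes tested rose and 31.9% fell. In KO 4 rose and 1 fell at T6, with 26.2% and 32.4% of all genes. At T16 there were 1 up and 3 down in WT (18.8% and 17.2% of all genes) and the same counts in KO (20.4% and 23.3%). At T32 there were 1 up and 6 down in WT (24.5% and 21.9% of all genes) and 0 up and 3 down in KO (18.2% and 20%). From T6 to T16, 4 genes fell in WT (19.5% of all genes) and 6 in KO (21.8%), and none rose. From T16 to T32 edgeR called 0 of 9 in WT (2.91% of all genes) and 0 in KO (2.55%). At an unadjusted p under 0.05 there were 3 in each, beside 17.6% of all genes in WT and 13.9% in KO. DESeq2 called 1 and 0.

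The T6 results depend on how libraries were scaled. With libraries scaled by their totals, the median log2 change of all genes at T6 was -0.94 in WT and -1 in KO, against -0.14 and -0.17 with TMM scaling. Under scaling by totals, the T6 changes against T0 of Nr4a2 (log2 0.48), Ier2 (0.07) and Ier3 (0.63) in WT no longer passed. In KO those of Egr1 (0.01) and Nr4a2 (0.50) did not pass either. Each of these values lay above the median of all genes in its genotype. Members called at T6 were then 1 up and 4 down in WT and 2 up and 4 down in KO. Of all 15782 genes tested, 2212 were then up and 9240 down in WT, and 2007 up and 9492 down in KO. The T6 rise of Nr4a3 in both genotypes, that of Ier3 in KO and the late falls of Egr2 and Nr4a1 passed under both scalings.

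The comparison of KO with WT asked whether loss of Stk40, a pseudokinase that brings substrates to the COP1 ubiquitin ligase, went with other levels of these genes. No member passed the edgeR test at any single time: 0 of 9 were called at T0, T6, T16 and T32, where 1.95%, 0.298%, 7.64% and 6.39% of all genes were. At an unadjusted p under 0.05 there were 2 of 9 at each time, beside 9.78%, 9.45%, 25.2% and 19.3% of all genes. DESeq2 called 0, 0, 2 and 0 of the 9, and its shares of all genes are not given here. The genotypes did not overlap for 1 gene at T0 (Ier5), 1 at T6 (Nr4a3), 3 at T16 (Egr1, Nr4a1 and Nr4a3) and 2 at T32 (Nr4a3 and Ier5), against 15.1%, 11%, 41.9% and 36.1% of all genes.

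**Figure D3:**
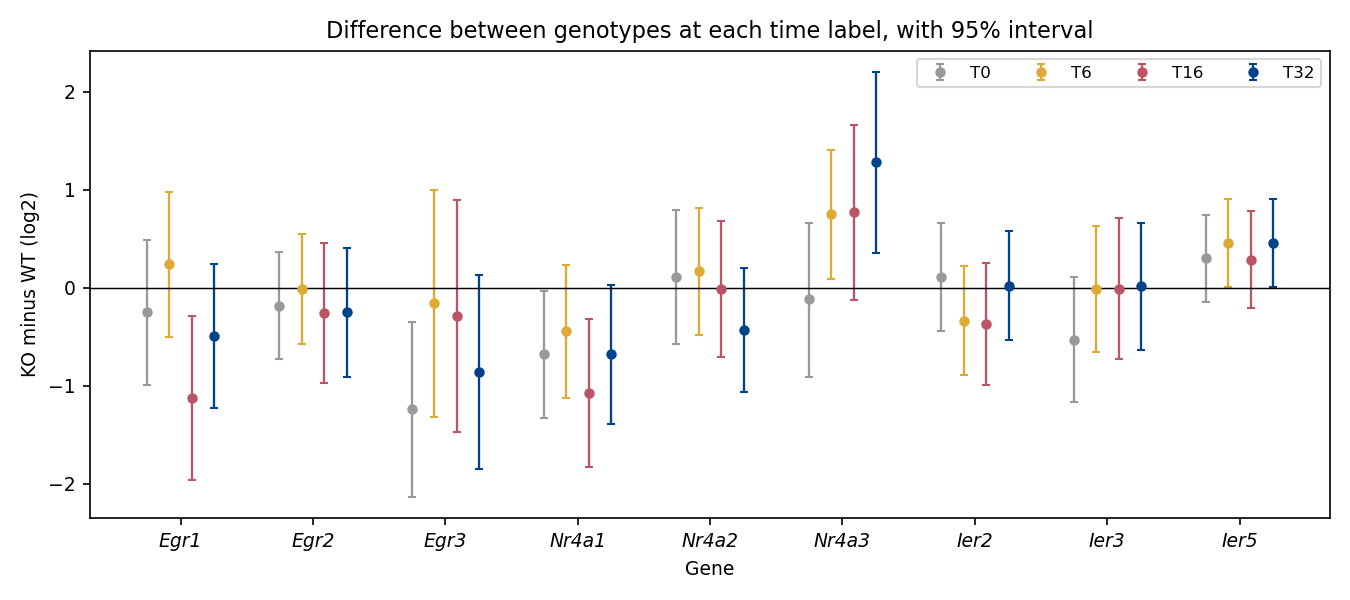
Log2 difference KO minus WT at each time label (colours) for the 9 genes (x axis), with the 95% interval. Points of Nr4a1 lie below 0 at all 4 times (-0.44 to -1.07) and those of Ier5 above 0 (0.28 to 0.46), and Nr4a3 lies above 0 after LPS.

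Averaged over the 4 times in the same fit, a contrast added after the single times had been seen, 3 of 9 genes passed, and 22.3% of all genes did. These were 2 higher (Nr4a3 and Ier5, beside 12.1% of all genes) and 1 lower (Nr4a1, beside 10.3%). With libraries scaled by totals 0 were higher and 3 lower, beside 940 higher and 4656 lower of all 15782 genes tested. Nr4a1 was lower in KO by 0.72 ± 0.17 on the log2 scale, or 1.65-fold (adjusted p = 0.0043). Its difference was -0.68 at T0 (adjusted p = 0.48), -0.44 at T6 (adjusted p = 0.78), -1.07 at T16 (adjusted p = 0.068) and -0.68 at T32 (adjusted p = 0.29), the KO mean being the lower each time. At T16 the KO libraries (1.95 to 3.31 CPM) lay below both WT libraries (5.77 and 6.01 CPM), and the T0 difference was -0.40 without KO T0 replicate 1 and -0.43 without WT T0 replicate 2. The T6 difference was -0.29 without KO T6 replicate 2, and that of T32 -0.39 without KO T32 replicate 3. The average of Nr4a1 passed in all 29 alternative fits, with values from -0.88 to -0.61. Without the Y-positive WT libraries it was -0.63 (adjusted p = 0.048).

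Nr4a3 was higher in KO on average by 0.67 ± 0.20 on the log2 scale, or 1.59-fold (adjusted p = 0.018). At T0 the libraries of the 2 genotypes overlapped. The KO libraries lay above all WT libraries at T6 (log2 0.75 ± 0.31, adjusted p = 0.43), T16 (0.77 ± 0.43, adjusted p = 0.27) and T32 (1.28 ± 0.44, adjusted p = 0.087). At T16 and T32 these values rest on 4 to 19 reads per WT library, and the T16 difference was 0.33 without WT T16 replicate 2 and 1.52 without WT T16 replicate 1. The average no longer passed without the Y-positive WT libraries (0.52, adjusted p = 0.12), without WT T16 replicate 2 alone (0.56, adjusted p = 0.057), with Y-linked status as a term in the fit (0.54, adjusted p = 0.089), or with libraries scaled by totals (0.48, adjusted p = 0.079).

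Ier5 was higher in KO on average by 0.37 ± 0.11 on the log2 scale, or 1.30-fold (adjusted p = 0.019). The difference was 0.30 at T0, 0.46 at T6, 0.28 at T16 and 0.46 at T32, with adjusted p from 0.24 to 0.75. Single libraries moved these values: at T6 it was 0.11 without KO T6 replicate 2, and at T16 0.02 without WT T16 replicate 1 and 0.61 without WT T16 replicate 2. At T0 the KO libraries (180 to 223 CPM) lay above the WT libraries (154 to 170 CPM), and at T32 (143 to 156 CPM) above those of WT (89.3 to 131 CPM). With libraries scaled by totals, which moved the median genotype difference of all genes to -0.19, the average was 0.21 (adjusted p = 0.13). It was 0.47 without the Y-positive WT libraries (adjusted p = 0.019).

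Among the EGR genes, the values that came nearest were those of Egr1 at T16 and Egr3 at T0. Egr1 at T16 was at 5.86 to 9.53 CPM in KO against 11.6 and 23.9 CPM in WT (log2 -1.12 ± 0.40, adjusted p = 0.083). This passed with DESeq2 (adjusted p = 0.044), with scaling by totals (-1.24, adjusted p = 0.04) and without WT T16 replicate 1 (-1.56, adjusted p = 0.02), and was -0.52 without WT T16 replicate 2 (adjusted p = 0.73). Nr4a1 at T16 likewise passed with DESeq2 (adjusted p = 0.034), with scaling by totals (-1.23, adjusted p = 0.038) and without KO T0 replicate 1 (-1.07, adjusted p = 0.042). Egr3 at T0 differed by -1.24 ± 0.43 (adjusted p = 0.21), and passed only without WT T0 replicate 1 (-1.62, adjusted p = 0.029), and was -0.79 without WT T0 replicate 2 (adjusted p = 0.81). On average Egr1 differed by -0.41 (adjusted p = 0.12), by -0.11 without the Y-positive libraries (adjusted p = 0.75), by -0.15 with Y-linked status as a term (adjusted p = 0.64) and by -0.25 without WT T16 replicate 2 alone (adjusted p = 0.39). It passed with scaling by totals (-0.56, adjusted p = 0.017) and without WT T16 replicate 1 (-0.51, adjusted p = 0.043). Egr3 differed on average by -0.64 (adjusted p = 0.076) and by -0.40 with that term (adjusted p = 0.35), and passed with scaling by totals (-0.81, adjusted p = 0.019), without KO T6 replicate 2 (-0.76, adjusted p = 0.03) and without WT T0 replicate 1 (-0.73, adjusted p = 0.018). For Egr2, Nr4a2, Ier2 and Ier3 no genotype difference reached an unadjusted p under 0.05 at any time.

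Whether the genotype difference itself changed from T0 was tested as an interaction. edgeR called 0 of 9 at T6, T16 and T32, where 0.101%, 0.0697% and 0.387% of all genes were called, and DESeq2 called 0 as well. Only Nr4a3 at T32 had an unadjusted p under 0.05 (log2 1.40, adjusted p = 0.4), where 9.05% of all genes did. The LPS changes that passed in 1 genotype and not in the other are therefore not shown to differ between them.

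Partners of the families were described from a list of 6: Egr4, the Ier5 relative Ier5l, Nab1, Nab2, and the retinoid X receptors Rxra and Rxrb, which pair with NR4A receptors. Egr4 did not pass the filter. At T6 in WT all 5 others changed, 2 up and 3 down, where 27.3% of all genes tested rose and 31.9% fell. Rxra (log2 -3.18 ± 0.14, adjusted p = 1.6e-12) and Ier5l (-2.37 ± 0.31, adjusted p = 2.5e-06) were among the deepest falls of the lists described here. Ier5l fell further by T32 (-3.18 against T0, adjusted p = 2.9e-07), while Nab1 was higher at T32 (1.84, adjusted p = 0.00013). By edgeR 0 of 5 passed between genotypes at T0 and T6, 2 at T16 and 1 at T32. The shares of all genes were 1.95%, 0.298%, 7.64% and 6.39% at the 4 times. At T0 and T6, 2 of the 5 had an unadjusted p under 0.05 at each time (9.78% and 9.45% of all genes), and DESeq2 called 0 and 1. Nab2, the EGR corepressor, was lower in KO at T32 (-0.85 ± 0.21, adjusted p = 0.02), a call lost without replicate 2 or replicate 3 of either genotype at T32, and at T16 Ier5l and Rxrb were lower. On average all 5 passed, Nab1 higher and the other 4 lower, beside 12.1% of all genes higher and 10.3% lower. Without the Y-positive WT libraries 1 of 5 passed on average.

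The 19 upstream regulators were SRF and its cofactors, CREB family members with their coactivators, and the MAP kinase chain. Between genotypes edgeR called 0 at T0, 1 at T6, 3 at T16 and 2 at T32. Beside these, 1.95%, 0.298%, 7.64% and 6.39% of all genes were called. At T0, 2 of the 19 had an unadjusted p under 0.05 (9.78% of all genes), and DESeq2 called 0. Elk3, a ternary complex factor of SRF, was higher in KO at T6 (log2 0.79 ± 0.12, adjusted p = 0.0049), T16 (0.79 ± 0.13, adjusted p = 0.0029) and T32 (0.70 ± 0.12, adjusted p = 0.0015). Rps6ka1, a kinase that acts on CREB, was lower at T16 (-0.60 ± 0.14, adjusted p = 0.013) and T32 (-0.54 ± 0.12, adjusted p = 0.012). Without KO T32 replicate 2, KO T32 replicate 3 or WT T32 replicate 2, 1 of the T32 calls was lost. The median difference of the 19 genes was 0.07, 0.02, 0.27 and 0.09 at the 4 times, beside 0.00, -0.01, -0.01 and -0.01 for all genes.

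Other immediate early genes were described from a list of 42. Between genotypes it counted 1 higher at T0, 4 higher at T16 and 9 higher at T32, and none lower. At T6 it counted 0 by edgeR and 2 by DESeq2. At an unadjusted p under 0.05 it counted 7 at T6, beside 9.45% of all genes. With libraries scaled by totals, 4 were higher and 1 lower at T16, and the same at T32. Of all 15782 genes tested, that scaling called 344 higher and 1233 lower at T16, and 303 and 1201 at T32. The share of the list that passed was 2.38% at T0, 0% at T6, 9.52% at T16 and 21.4% at T32. For all genes it was 1.95%, 0.298%, 7.64% and 6.39%. This list was chosen with earlier results of these data known, so its shares are a description only. Leaving out 1 of 5 libraries (any KO T32 library, WT T32 replicate 1 or WT T32 replicate 2) took the T32 count to between 2 and 4. Trib1, a pseudokinase that shares the COP1 pathway with Stk40, was higher in KO at T0 (log2 1.07 ± 0.22, adjusted p = 0.011), a call lost without WT T0 replicate 3. The Kruppel-like factor gene Klf4 was higher at T16 (1.61 ± 0.29, adjusted p = 0.004) and T32 (1.64 ± 0.25, adjusted p = 0.00071), as were Dusp1, a MAP kinase phosphatase (0.85 and 1.09, adjusted p = 0.023 and 0.002), and Tnfaip3, which restrains NF-kB (0.96 and 0.80, adjusted p = 0.0099 and 0.012). Klf6 was higher at T16 (0.96, adjusted p = 0.012). Without WT T16 replicate 2 the T16 calls of this list, of the partners and of the upstream regulators all went to 0, and without WT T16 replicate 1 this list had 8. On average 16 of the 42 were higher and 1 lower in KO (12.1% and 10.3% of all genes). With libraries scaled by totals 10 were higher and 7 lower, beside 940 higher and 4656 lower of all 15782 genes tested.

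**Figure D4:**
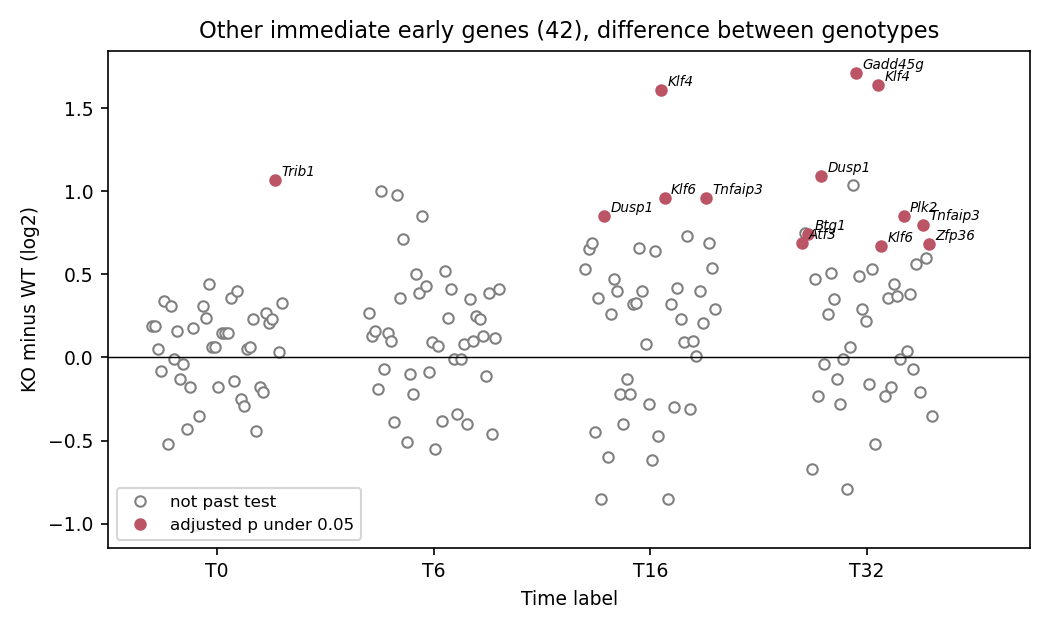
Log2 difference KO minus WT of the 42 other immediate early genes at each time label, 1 point per gene, filled and named where the adjusted p was under 0.05. The filled points lie above 0, with 1 at T0, 0 at T6, 4 at T16 and 9 at T32.

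With LPS in WT, 21 of these 42 genes rose and 10 fell at T6 (27.3% and 31.9% of all genes), 11 rose and 11 fell at T16 (18.8% and 17.2%), and 9 rose and 17 fell at T32 (24.5% and 21.9%). Scaled by totals these were 14 and 17, 7 and 17, and 4 and 22. Of all 15782 genes tested, 2212 then rose and 9240 fell at T6, 1593 and 5639 at T16, and 2286 and 5554 at T32. The largest rises at T6 were those of Dusp2 (log2 6 ± 0.41, adjusted p = 2.2e-09), Tnfaip3 (4.70 ± 0.18) and Nfkbia, the NF-kB inhibitor (3.41 ± 0.23), each larger than the 2.43 of Nr4a3. Zfp36l1, an RNA-decay factor, fell by 2.69. Fosb, an AP-1 subunit, fell by 4.33 at T16 and by 4.52 at T32, and the transcription factor gene Bhlhe40 by 2.01 and 2.49. At T16 Dusp2 (2.47), Nfil3 (1.83) and Trib1 (1.74) were the highest against T0, and at T32, beside Nab1, Nfil3 (1.72) and Elk4 (1.5), a partner of SRF.

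The 9 members did not share 1 pattern. Over the 8 group means of log2 CPM, Nr4a3 correlated with Ier3 at 0.88 and with Ier2 at 0.85, Egr2 with Nr4a1 at 0.85, and Egr3 with Nr4a2 at -0.85, while Egr1 exceeded 0.50 with Ier3 alone (0.55). Among 9278 other genes of at least 5 CPM on average, those closest to Egr2 were Cd9 (r = 0.996), a tetraspanin, Crip1 (0.993) and S100a6 (0.992). Closest to Nr4a3 were Cnppd1 (0.988), Tcirg1 (0.987) and Traf5 (0.987), to Nr4a1 Npdc1 (0.982), Arih2 (0.979) and Atp6v1f (0.979), and to Nr4a2 Gng5 (0.996), the processed pseudogene Gm7776 (0.989) and Zbtb12 (0.987). Ier3 was closest to Adamts4 (0.990), Mrpl13 (0.983) and E2f5 (0.982), Ier2 to Ewsr1 (0.979), Slc4a2 (0.977) and 2700081O15Rik (0.976), and Ier5 to Zbtb24 (0.944), Gm10419 (0.928) and Dnase1l1 (0.926). Egr1 was closest to Ltv1 (0.973), Ddx1 (0.941) and Men1 (0.912), and Egr3 to Fam43a (0.991), Nap1l1 (0.974) and Setd1a (0.969). With 8 points and this many candidates, values this high are a description of these libraries, which share scaling and time.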

How the data were processed

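Per the labels' protocols, polyadenylated RNA was made into TruSeq libraries and sequenced as single-end reads, and that kit does not mark strand. Alignment was with GSNAP against GRCm38 per the submitters' processing notes; the counter and the annotation release are not stated there. What the authors deposited is a raw count per gene and, per the file headers, an RPKM adjusted by size factors (nRPKM). Counts gave every test and the CPM levels, scaled by TMM (factors 0.68 to 1.45), and nRPKM served to compare genes with each other. No exon of another gene overlaps the 9 genes in GENCODE mouse release 21 (GRCm38), which gave the coordinates.

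Tests used edgeR 4.0.16 under R 4.3.3. After filterByExpr (15782 of 52636 genes kept), 1 robust quasi-likelihood fit covered the 23 libraries with a mean for every group. Calls needed an adjusted p (Benjamini-Hochberg, all genes tested) under 0.05, and this is the test meant unless DESeq2 (1.42.0) is named. SEs and 95% intervals are Wald values from the same fit, on the log2 scale. Counts limit the precision of single values, and the counts of any 2 replicates differed beyond sampling noise (chi-square divided by its degrees of freedom, 12.83 to 172.1), and each was used singly.

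The members and lists were chosen with earlier results of these data known. From the lists, the genes named were, for each genotype comparison, called genes up to 6 by lowest p and, for each LPS comparison in WT, the 3 largest called changes in each direction, and for likeness the 3 highest correlations per member. Alternatives were DESeq2, other size factors, scaling by totals, no filter, only the groups compared, no Y-positive WT libraries, Y-linked status as a term (added after the results had been seen), and each library left out.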

Additional observations from a re-analysis of the deposited data

How the results depend on the processing

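Under the alternatives, the T16 and T32 falls of Egr2 and the T32 fall of Nr4a1 against T0, the T6 rise of Nr4a3 and the lower average of Nr4a1 in KO kept direction and call throughout, and no member value reported with a test changed direction. Counts of genes that passed moved as follows, and the cause was not tested except where fewer libraries or genes entered. Scaling by totals gave 2 members for KO against WT at T16 (0 as reported), 7 for KO T16 against T0 (4 as reported) and 5 for KO T32 against T0 (3 as reported). Of all genes it called 344 higher and 1233 lower, 1704 and 7033, and 1484 and 5770 in these 3 comparisons. Between genotypes it also gave 2 partners and 2 upstream regulators at T6 (16 higher and 106 lower of all genes). At T32 it gave 5 other immediate early genes between genotypes, 4 higher and 1 lower (303 and 1201 of all genes). For the other fits, counts of all genes are given below as ranges, between genotypes only. DESeq2 gave 2 members between genotypes at T16, 1 member for WT T32 against T16, 1 partner at T6, 6 upstream regulators at T16, and 2, 2 and 7 other immediate early genes at T0, T6 and T16. Without the filter on low counts 3 partners passed on average. With only the groups compared in a fit, 1 member passed between genotypes at T32, 5 for KO T32 against T0 and 1 for KO T32 against T16, and at T32 2 partners and 17 other immediate early genes. In the same fits 0 upstream regulators passed at T6, 0 other immediate early genes at T0, and 0 genes of all 3 lists at T16. Without the Y-positive WT libraries, 2 members passed for WT T16 against T0, 0 partners at T16 and T32, 0 upstream regulators at T16, and on average 1 partner and 4 upstream regulators. With Y-linked status as a term, a fit chosen after seeing the data, 2 other immediate early genes passed at T6, 0 partners at T16, and on average 3 partners and 5 upstream regulators.

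Leaving out each library in turn, members called between genotypes ranged from 0 to 1 at T0 and at T16, and on the LPS axis from 3 to 5 for KO T6, 2 to 5 for KO T32, 2 to 4 for WT T16 and 4 to 7 for WT T32 against T0. For T32 against T16 they ranged from 0 to 1 in both genotypes. Other immediate early genes ranged from 0 to 1 at T0, 0 to 2 at T6, 0 to 8 at T16 and 2 to 10 at T32. Partners ranged from 0 to 1 at T6, 0 to 4 at T16, 0 to 1 at T32 and 3 to 5 on average, and upstream regulators from 0 to 1 at T0, 0 to 9 at T16, 1 to 2 at T32 and 5 to 11 on average. Without 1 library of WT T16, its lone library is assumed to vary like the other groups. Over all genes, the number called between genotypes ranged over all alternatives from 126 to 506 at T0 (307 as reported), 0 to 269 at T6 (47), 9 to 3537 at T16 (1206) and 363 to 2688 at T32 (1009). With scaling by totals the genes called at T6 in WT were 2212 higher and 9240 lower, against 4302 and 5030 with TMM. At T16 between genotypes the split was 344 higher and 1233 lower, against 656 and 550. No paired analysis was possible because the labels give no replicate numbers and tie no libraries of different times to 1 mouse, so changes with LPS were tested as if all libraries were independent. Read depth limits Egr3 and Nr4a3 most, with as few as 4 reads in a library.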
